A study of Mus musculus with 4 samples.

Results

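The genes described here were the 7 globins Hba-a1, Hba-a2, Hba-x, Hbb-bs, Hbb-bt, Hbb-y and Hbb-bh1, all present among the 27998 gene rows of raw counts from the embryonic arcuate nucleus (ARC). They were taken by name and by no threshold on their levels, but earlier results of these data were known when they were chosen. They were followed over all 6465 cell barcodes, before any barcode had been removed for its Hba-a1 count. The barcodes with more than 10 Hba-a1 UMIs (unique molecular identifiers, 1 per captured transcript), a limit that the study's methods state for leaving barcodes out, numbered 42 of 6465 and are called high here. The remaining 6423 are called the rest.

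The study made a single-cell RNA-seq library with the 10x Chromium 3′ system from ARC tissue dissected at E15 (E15.5 in the sample titles) from Pomc-eGfp embryos, whose transgene drives green fluorescent protein from Pomc regulatory sequence and marks the ARC for dissection. The strain was C57BL/6, no treatment was given, and tissue of several embryos was pooled. Per the series' design text, the 4 samples were repeated sequencing of 1 sample, so there was 1 group and no replicate. Every interval below is a 95% interval that covers counting error only, and no p-value is given.

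Hemoglobin carries oxygen in red cells and is a tetramer of alpha-type and beta-type chains, each encoded in its own gene cluster. The first red cells of the embryo come from the yolk sac and use embryonic chains, Hba-x (zeta) on the alpha side and Hbb-y and Hbb-bh1 on the beta side, together with the adult alpha chains. Red cells made later in the fetal liver use the adult chains Hba-a1 and Hba-a2 with Hbb-bs and Hbb-bt. Globin mRNA is so abundant in red cells that it commonly appears at a low level in droplets that hold other cells.

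The alpha cluster lies on chr11 and the beta cluster on chr7 of GRCm38 (mm10), and each member has 3 exons in the annotation. The sequences before the start sites are shown so that adult and embryonic members can be compared. They are the 150 bases before the start site, 5′ to 3′ on the gene's own strand, from the RefSeq table of GRCm38.p6, which matched 6 of the 7 members and held none for Hbb-bh1. Capitals mark every match, on either strand, to the letters CCAAT or CACCC, which are known elements of globin promoters, to GATAA, the core that GATA factors bind, and to the TATA box letters TATAA or their variant CATAAA.
Hba-a1, chr11:32283522-32283671, plus strand: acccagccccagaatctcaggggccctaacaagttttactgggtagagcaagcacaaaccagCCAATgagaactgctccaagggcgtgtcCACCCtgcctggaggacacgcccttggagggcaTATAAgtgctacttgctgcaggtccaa
Hba-a2, chr11:32296342-32296491, plus strand: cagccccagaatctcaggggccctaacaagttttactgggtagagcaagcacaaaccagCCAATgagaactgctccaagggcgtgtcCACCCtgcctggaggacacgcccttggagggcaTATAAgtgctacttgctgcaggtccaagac
Hba-x, chr11:32276450-32276599, plus strand: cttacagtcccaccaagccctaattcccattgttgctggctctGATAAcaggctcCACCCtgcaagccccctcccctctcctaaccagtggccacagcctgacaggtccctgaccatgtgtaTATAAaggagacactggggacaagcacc
Hbb-bs, chr7:103827929-103828078, minus strand: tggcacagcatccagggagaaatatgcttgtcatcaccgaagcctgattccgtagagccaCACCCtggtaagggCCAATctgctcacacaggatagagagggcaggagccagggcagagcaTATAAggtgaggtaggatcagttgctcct
Hbb-bt, chr7:103813924-103814073, minus strand: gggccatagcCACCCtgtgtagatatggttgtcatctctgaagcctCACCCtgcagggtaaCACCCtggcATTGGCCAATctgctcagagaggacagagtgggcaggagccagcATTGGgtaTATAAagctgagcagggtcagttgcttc
Hbb-y, chr7:103853208-103853357, minus strand: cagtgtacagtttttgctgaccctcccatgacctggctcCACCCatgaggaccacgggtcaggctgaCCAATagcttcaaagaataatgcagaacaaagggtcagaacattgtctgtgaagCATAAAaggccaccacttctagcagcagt

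CCAAT and CACCC stood together in 5 of the 6 sequences, against 8.69% of the 32851 promoters in the same window. Hba-x held CACCC but no CCAAT, and it was the member with a GATAA. The letters TATAA were present in 5 of the 6 (14.2% of all promoters), and Hbb-y had CATAAA in its place (6.33% of all promoters). Alone, CCAAT was in 24.5%, CACCC in 37.4% and GATAA in 13.3% of all promoters. The Hba-a1 and Hba-a2 sequences were offset against each other and identical at all 147 bases that they share. Hbb-bs and Hbb-bt were identical at 72.4% of aligned bases. The adult and embryonic members were less alike, with 50.6% identity between Hba-a1 and Hba-x and 50.3% between Hbb-bs and Hbb-y. These matches are descriptions of sequence only.

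The transcripts of the adult pairs also share sequence. Of the 100-base windows of the Hba-a1 transcript, 56.5% occurred unchanged in that of Hba-a2 (50.2% in the last 300 bases, where 3′ reads fall). For Hbb-bs in Hbb-bt the share was 62.6% (20.9% in the last 300 bases). It was 0% between Hbb-y and Hbb-bh1 and between Hba-a1 and Hba-x. Only uniquely mapped reads were counted, so the split of counts within Hba-a1 and Hba-a2, and within Hbb-bs and Hbb-bt, is uncertain, and so is any ratio that sets a member of 1 pair against another gene.

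Of 26277265 UMIs in the library, 132101 (0.503%) were globin UMIs, and 4064 barcodes (62.9%) held at least 1 of them. Among the adult beta genes Hbb-bs gave 57339 UMIs in 2842 barcodes and Hbb-bt 12269 in 853. Among the adult alpha genes Hba-a2 gave 32707 UMIs in 1200 barcodes and Hba-a1 24322 in 806. The embryonic genes were fewer, with 4957 UMIs of Hbb-y in 244 barcodes, 478 of Hba-x in 20 and 29 of Hbb-bh1 in 9. Hbb-bs was thus the globin seen in the most barcodes, and Hbb-bh1 the one seen in the fewest. Of the other globin family rows, the theta globins Hbq1a and Hbq1b had 2 and 0 UMIs and Hbb-bh2 had 0. Ngb and Cygb, which are globins of nerve and other cells, had 94 and 446 UMIs, and Mb, the muscle oxygen store, had 60. None of these UMIs was in a high barcode.

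The 42 high barcodes, 0.650% of all barcodes (exact binomial interval 0.469 to 0.877%), held 94.4% of all globin UMIs and 0.780% of all UMIs. Their Hba-a1 count was 16 at the lowest, 420.5 at the median and 1711 at the highest, and this is what chose them. The 4 counts just above the limit were 16, 71, 74 and 165, while the highest below it were 9, 6, 6 and 5. Of the UMIs of each gene, the high barcodes held between 72.4% (Hbb-bh1) and 96.5% (Hba-a1). The plot of globin UMIs against other UMIs shows that the high barcodes were of more than 1 kind.

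**Figure D1:**
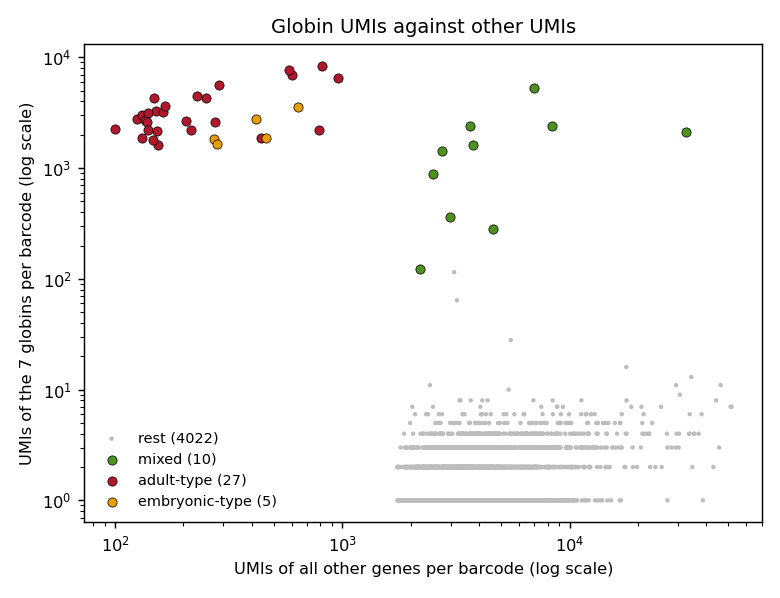
UMIs of the 7 globins (vertical, log scale) against UMIs of all other genes (horizontal, log scale), 1 point per barcode with at least 1 globin UMI. The 27 adult-type and 5 embryonic-type barcodes lie at the upper left with 100 to 961 other UMIs, the 10 mixed barcodes at the upper right with 2188 to 32565, and the 4022 points of the rest lie below.

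In 32 of the 42 high barcodes at least 50% of the UMIs were globin UMIs, and these are called globin-dominated. They held 1761 to 9231 UMIs from only 83 to 466 detected genes, with a globin share of 73.8 to 96.7%. The other 10 high barcodes had a globin share of 5.28 to 43.1% and 1143 to 6170 detected genes, and they are called mixed. The rest had 799 to 7422 detected genes, so every globin-dominated barcode had fewer detected genes than any barcode of the rest.

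The globin-dominated barcodes fell apart by their beta chain, as the plot of globin make-up shows. In 27 of them, called adult-type, Hbb-y, Hbb-bh1 and Hba-x were all at 0. Their Hbb-bs count ran from 779 through a median of 1546 to 3129, Hbb-bt from 98 through 235 to 1206, Hba-a1 from 275 through 528 to 1711 and Hba-a2 from 377 through 696 to 2369. Over these 27 barcodes the embryonic beta genes had 0 of 55343 beta-type UMIs (a limit of 0.00542% at 3 counts), and Hba-x had 0 of 40851 alpha-type UMIs (a limit of 0.00734%). The other 5 barcodes, called embryonic-type, carried mostly Hbb-y. This division was made after the values were seen and is given as a description.

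**Figure D2:**
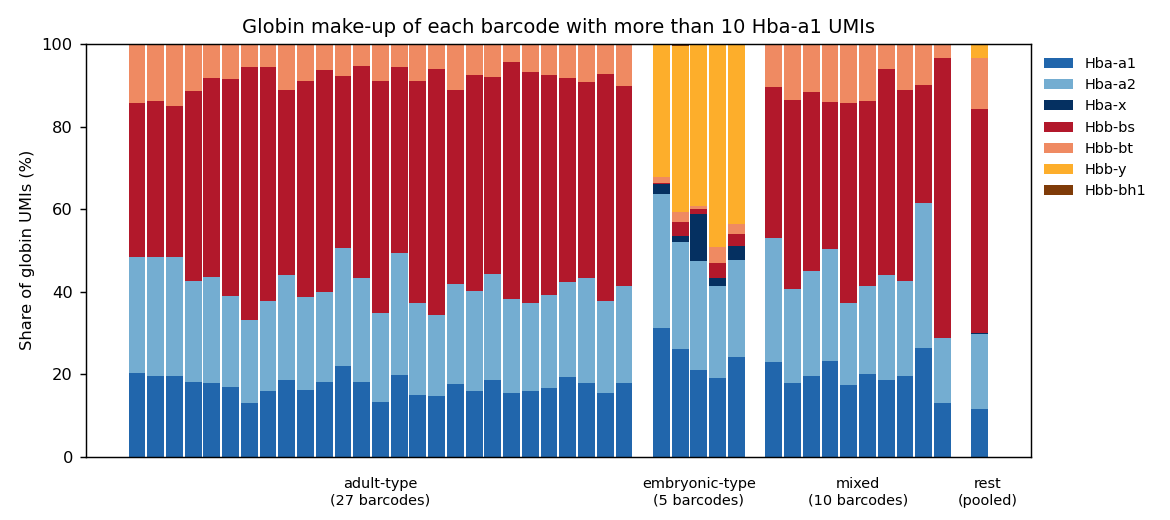
Share of globin UMIs (%) taken by each of the 7 globins, 1 bar for each of the 42 barcodes with more than 10 Hba-a1 UMIs, sorted within kind by globin UMIs, and 1 pooled bar for the rest without 8 barcodes over 10 globin UMIs. Hbb-y takes 32.2 to 49.2% of the 5 embryonic-type bars and none of the 27 adult-type bars, where Hbb-bs takes 36.6 to 61.3%.

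Hbb-y, the main embryonic beta chain, had 1142, 1118, 723, 722 and 894 UMIs in the 5 embryonic-type barcodes. Hba-x, the embryonic alpha chain, had 88, 38, 57, 214 and 36 UMIs in the same order. Hbb-bh1, the other embryonic beta chain, had 0, 13, 0, 6 and 2. Hbb-y was thus high in all 5, while Hba-x varied more and Hbb-bh1 was low or at 0. The adult chain Hbb-bs had 10, 96, 47, 22 and 64 UMIs there and Hbb-bt 51, 61, 42, 16 and 70, both below every adult-type barcode. Hba-a1 had 1109, 724, 400, 389 and 348 and Hba-a2 1148, 720, 390, 491 and 404, within the range of the adult-type barcodes.

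On the beta side the embryonic chains therefore made 90.6% of UMIs in the embryonic-type barcodes, and at least 87.0% in each single barcode. On the alpha side Hba-x made only 6.60%, with 2.56 to 19.6% in single barcodes. The adult alpha genes thus supplied most alpha-type UMIs in both kinds of barcode. Hbb-bt to Hbb-bs also differed, with 240 and 239 UMIs in the embryonic-type barcodes against 9142 and 46201 in the adult-type barcodes, a ratio of 0.198 (0.193 to 0.202) in the latter. The single-barcode ranges of this ratio, 0.635 to 5.10 and 0.0767 to 0.413, did not overlap. Hba-a2 to Hba-a1 was 1.06 in the embryonic-type and 1.40 (1.37 to 1.43) in the adult-type barcodes, where the single-barcode ranges of 0.975 to 1.26 and 1.21 to 1.61 overlapped.

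The adult-type barcodes were not uniform. Hbb-bs to Hba-a1 was 2.72 pooled (2.67 to 2.76), and in single barcodes it ran from 1.83 through a median of 2.83 to 4.68. The 9 barcodes with the most globin UMIs (3616 to 8415) had a pooled ratio of 2.48 (2.42 to 2.54), the middle 9 had 2.97 and the 9 with the fewest (1606 to 2258) had 3.08 (2.96 to 3.21). Hbb-bt to Hbb-bs went the other way, at 0.247, 0.149 and 0.145. Hba-a2 to Hba-a1 was 1.41, 1.39 and 1.38, with overlapping intervals. These intervals cover counting error only, and the spread between barcodes was wide. The barcodes with 8415, 7757 and 6868 globin UMIs had Hbb-bs to Hba-a1 at 1.83, 1.93 and 1.87. Their Hbb-bt to Hbb-bs was 0.385, 0.363 and 0.413. The others of those 9 ran from 2.42 to 4.68 and from 0.0924 to 0.247. A barcode of the middle 9, with 3122 globin UMIs, was also low at 1.90. The pooled values thus leaned on a few barcodes, and a steady trend was not shown. Over the 27 barcodes of this 1 library, Spearman's rho with globin UMIs was -0.339 for Hbb-bs to Hba-a1 and 0.323 for Hbb-bt to Hbb-bs, given as a description. Detected genes moved with these ratios, with a median of 184, 112 and 113, and their part in the result was not tested. The alpha-type share of globin UMIs was 42.5% over the 27 barcodes, with 33.0 to 50.6% in single barcodes.

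**Figure D3:**
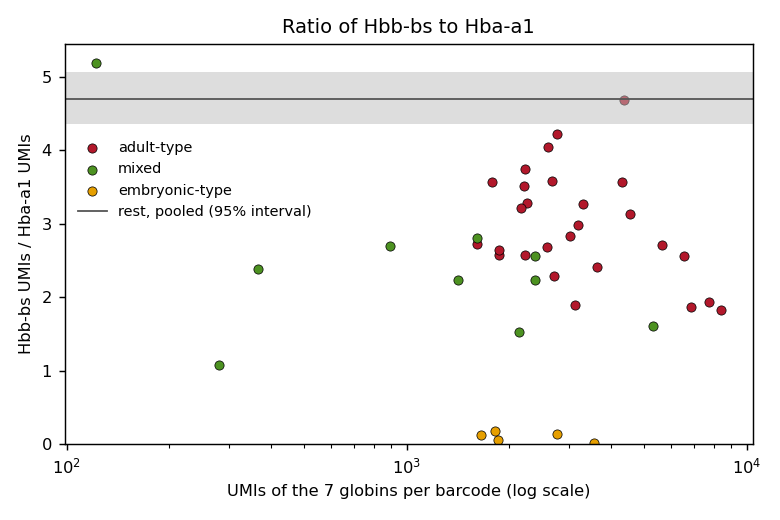
Hbb-bs UMIs divided by Hba-a1 UMIs (vertical) against UMIs of the 7 globins (horizontal, log scale) for the 42 high barcodes, with the pooled rest without 8 barcodes over 10 globin UMIs as a line and its exact 95% interval as a band. The adult-type points run from 1.83 to 4.68, the embryonic-type points lie near 0, and the pooled rest is at 4.70.

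Red cell genes other than globins were present in the globin-dominated barcodes. Levels here are CPM, counts scaled to a common total of non-globin UMIs, and a gene was called higher at a ratio of at least 4 among genes with at least 20 UMIs in the library. Of the 26 erythroid list genes that met this minimum, out of 43 with a row, 18 were called higher in the globin-dominated barcodes, where 4.4% of all 14261 genes were called. Of the 26, 2 met the minimum only through the high barcodes, Alas2 among them, and had to be called. Of the 24 with at least 20 UMIs in the rest, 16 were called, and 5 of the 18 calls rested on at most 3 UMIs. The median ratio was 24.1 for the 26 genes and 0 for all genes, because only 2375 of the 14261 had any UMI in these barcodes, and 37.5 and 17.9 with unseen genes set at the 3-count bound. Over all 42 high barcodes, 16 of the 26 were called, where 6.96% of all genes were, and in the mixed barcodes 10 of the 26, where 7.21% of all genes were. The mixed barcode with 496 Hba-a1 UMIs gave 32565 of the 80153 non-globin UMIs of the high barcodes. It also gave 197 of the 370 erythroid list UMIs of the mixed barcodes. With a limit of 5 Hba-a1 UMIs, 11 erythroid genes were called over the high barcodes, of 981 genes called in all. The globin-dominated barcodes held only 9838 non-globin UMIs in all, so 1 UMI there already stands for 102 CPM.

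Of the heme synthesis genes, 7 of the 9 tested were called higher, Ppox on a single UMI (ratio 6.37, 0.161 to 35.7). Alas2, which starts heme synthesis in red cells, had 93 UMIs in 21 of the 32 globin-dominated barcodes and 7 UMIs in the rest. Fech, which inserts the iron, had 34 UMIs in 16 barcodes against 422 in the rest, a ratio of 213 (146 to 303). Slc25a37, which brings iron into the mitochondrion, had 24 UMIs in 13 barcodes against 134, a ratio of 475 (294 to 737). Uros, a middle step of the pathway, had 0 UMIs there, and Alad had 1. The intervals of their ratios reached 17.0 and 16.8, so a higher level of either was not excluded.

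Of the red cell membrane genes, 2 of the 4 tested were called higher. Epb41, a protein of the membrane skeleton, was one of them, with 12 UMIs in 9 of the 32 barcodes and a ratio of 30.5. Slc4a1, the anion exchanger, had 10 UMIs in 5 barcodes and 1 in the rest, too few in all to enter the test. Of the cytosol and other list, 8 of the 9 tested were called higher, among them Bpgm, which makes the bisphosphoglycerate that lowers oxygen affinity, with 61 UMIs in 21 barcodes and a ratio of 71.2 (54.3 to 91.8). Car2, a carbonic anhydrase, had 26 UMIs in 6 barcodes and a ratio of 615 (385 to 949). Tfrc, the transferrin receptor of iron-importing precursors, had 0, with an interval of the ratio that still reached 16.9.

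Of the erythroid transcription factors, 1 of the 4 tested was called higher, on a single UMI of Tal1, and Lyl1, with too few UMIs to be tested, had 2. Gata1 had 0 UMIs in the whole library, and Klf1 had 14, all in the rest. At this depth the interval of the Klf1 ratio still reached 799, so a higher level of Klf1 in the globin-dominated barcodes was not excluded. The list with the platelet gene Pf4 had 0 UMIs in the globin-dominated barcodes, as did the granulocyte list. The interval of the Pf4 ratio reached 82.0, and 0 granulocyte genes had enough UMIs to be tested. Higher levels of these lists were thus not excluded either. Neuron list genes, 0 of 6 of which were called, summed to 29 UMIs in the globin-dominated barcodes. This was 2948 CPM against 5078 CPM in the rest, with a median ratio of 0.793 for the 6 genes. In the adult-type barcodes the list was at 3604 CPM. Per non-globin UMI, neuron list RNA was thus not absent. Single adult-type barcodes held 0 to 10 of these UMIs, and 3 of the 27 adult-type barcodes held UMIs of at least 3 of these markers.

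Outside the lists, the genes with the largest ratios in the globin-dominated barcodes included Ube2l6, a ubiquitin-like conjugating enzyme, with 36 UMIs and a ratio of 994 (658 to 1471), and Gpx1, a glutathione peroxidase, with 167 UMIs and a ratio of 78.6 (67.0 to 91.7). Alas2 was found mostly in the adult-type barcodes, with 92 UMIs against 1 in the embryonic-type barcodes, which held 2068 non-globin UMIs. Fth1, the ferritin heavy chain that stores iron, led in the embryonic-type barcodes with 219 UMIs and a ratio to the rest of 72.2 (62.9 to 82.4). Its 5 counts were 154, 39, 8, 3 and 15, so 1 barcode gave most of them. Single adult-type barcodes held 0 to 45 UMIs of Fth1, so the gene was not particular to the embryonic type. Of all genes, 4.46% were called in the adult-type and 2.44% in the embryonic-type barcodes. Over all 6465 barcodes, the 5 genes whose log-scaled level was most like that of Hba-a1 included Alas2 (Pearson r 0.571), Ube2l6 (0.283), Slc25a37 (0.269) and Fech (0.162). These values rest on the same high barcodes and are a description.

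The 10 mixed barcodes carried globins beside the RNA of other cells. In 5 of them UMIs of at least 3 neuron markers were found, with 19 to 36 neuron list UMIs, 4 to 11 of them from Tubb3, a neuronal tubulin. Their Hba-a1 counts were 283, 279, 165, 74 and 71. Another 4 held markers of neural progenitors and of cycling cells, with Hba-a1 counts of 1211, 496, 464 and 426 and 60, 197, 35 and 22 erythroid list UMIs. The one with 496 had 34705 UMIs and 68 UMIs of Cldn5, a tight junction gene of endothelium, and it gave 31 of the 31 Lmo2 UMIs of the mixed barcodes. The last, with 16 Hba-a1 UMIs, held endothelium markers and was the one with the fewest globin UMIs (122). All 10 were of adult make-up, with 1 Hbb-y UMI among 9023 beta-type UMIs and 0 of Hba-x. No doublet caller was run, and whether a barcode held more than 1 cell was not tested.

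Other limits stated in the methods, on detected genes (200 to 4500) and mitochondrial UMIs (10%), already covered 24 of the 42 high barcodes, 23 through fewer than 200 genes and 1 through more than 4500. The Hba-a1 limit alone removed 18, namely 6 adult-type, 3 embryonic-type and 9 mixed barcodes. With all limits, 6351 barcodes were left, which held 7089 globin UMIs, 0.0290% of their UMIs. The set the study went on to analyse was smaller, and the steps between were not rebuilt here.

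In the rest, globin UMIs were few and widely spread. They were 7371 in all, 0.0283% of UMIs (0.0276 to 0.0289%), or 1.15 per barcode, and 62.6% of barcodes held at least 1. Hbb-bs was found in 43.6% of barcodes (42.4 to 44.8), Hba-a2 in 18.0% (17.1 to 19.0), Hbb-bt in 12.6% (11.8 to 13.5) and Hba-a1 in 11.9% (11.1 to 12.7). The intervals of Hbb-bt and Hba-a1 overlapped, while Hba-a2 and Hbb-bs each stood apart. Hbb-y was found in 3.71% (3.26 to 4.20), Hba-x in 0.234% and Hbb-bh1 in 0.0934%. With every barcode thinned to 1748 UMIs, the depth of the shallowest, the shares were 23.5% for Hbb-bs, 8.78% for Hba-a2, 5.85% for Hba-a1, 5.74% for Hbb-bt and 1.76% for Hbb-y, and no barcode was left out.

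Most of these were single UMIs. At least 2 UMIs were found for Hbb-bs in 12.4%, Hba-a2 in 2.09%, Hba-a1 in 1.01% and Hbb-y in 0.140% of the rest. A model in which each barcode receives globin UMIs at 1 rate per UMI of depth gave 18.1% with Hba-a2 and 12.2% with Hba-a1, inside the counted intervals, and 42.2% with Hbb-bs, just under its interval. The model takes 1 rate at every depth, although the level itself fell with depth, as given further on. For Hbb-y it gave 5.33% against 3.71% counted.

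A few barcodes of the rest held embryonic globins well above the others. Those with 6, 5 and 9 Hba-a1 UMIs had 67, 41 and 8 Hbb-y UMIs and 25, 7 and 0 of Hba-x, with 0 of Hbb-bs in each. All 3 were within the other limits, with 1591 to 2034 detected genes. They belong to 8 barcodes of the rest with more than 10 globin UMIs. Without those 8, the Hbb-y share of barcodes was 3.65% and the model gave 3.64%, so the gap seen above was not there. These 3 barcodes stayed under a limit placed on Hba-a1 while most of their beta-type UMIs were Hbb-y.

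The make-up of the rest is set beside that of the adult-type barcodes as a description, since the Hba-a1 count that chose the groups enters the alpha-type share and the ratios to Hba-a1. Without the 8 barcodes the alpha-type share was 30.0% (28.9 to 31.1), below the 33.0% of the lowest adult-type barcode. The pooled Hbb-bs to Hba-a1 ratio was 4.70 (4.35 to 5.07), against 2.72 pooled over the adult-type barcodes, of which only the highest (4.68) was inside that interval. The mixed barcode with 16 Hba-a1 UMIs lay past the rest on both measures, at 28.7% and 5.19. Hbb-bs to Hba-a2 was 2.97 (2.79 to 3.17), against 1.94 (1.91 to 1.97). The ratios within the pairs lay closer, with 1.58 (1.45 to 1.73) for Hba-a2 to Hba-a1 and 0.226 (0.210 to 0.243) for Hbb-bt to Hbb-bs. Embryonic chains made 4.91% (4.32 to 5.55) of beta-type UMIs without the 8 barcodes and 7.12% with them, and Hba-x made 0.610% and 2.01% of alpha-type UMIs. Over all high barcodes the same shares were 6.65% and 0.783%, and within the limits on genes and mitochondrial UMIs they were 10.2% and 1.25%, with 7.15% embryonic beta chains in the rest. The embryonic beta value was the lower of the 2 groups in the high barcodes over all barcodes, and the higher one within those limits, with a limit of 5 Hba-a1 UMIs, in the globin-dominated barcodes alone or without the 8 barcodes. The intervals of the groups overlapped over all barcodes and for the globin-dominated barcodes, so no difference was shown there. Where they stood apart, no difference was shown either, because the intervals count UMIs and not barcodes. Of the 4621 embryonic beta UMIs of the high barcodes, 4620 came from the 5 embryonic-type barcodes. For Hba-x the high barcodes had the lower share in each of these but the set without the 8 barcodes, and there and with a limit of 5 the intervals overlapped.

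Globin levels in the rest fell as depth rose, as the plot by depth shows. The 7 globins together were at 355, 308, 331, 286 and 231 CPM of all UMIs over 5 equal bins of barcodes from the shallowest to the deepest, and the third value held the 2 barcodes with 67 and 41 Hbb-y UMIs (290 CPM without them). Hbb-bs went from 192 to 128 CPM and Hba-a1 from 41.2 to 25.7 CPM. The ratio of the shallowest to the deepest bin was 1.54 (1.42 to 1.66) for the 7 together, between 1.45 (Hbb-bt) and 1.60 (Hba-a1) for the 4 adult genes and 1.87 (1.23 to 2.80) for Hbb-y. Of 11376 genes with enough UMIs, 41.6% had a ratio over 1 and the median was 0.937, and the globins together stood at the 94.4th percentile. Globin UMIs per barcode rose 2.37-fold while UMIs per barcode rose 3.65-fold.

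**Figure D4:**
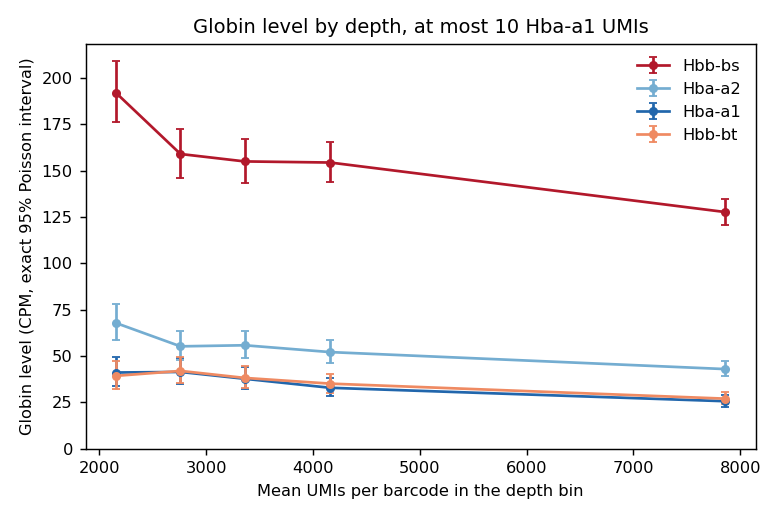
Level of 4 adult globins (CPM) in the barcodes with at most 10 Hba-a1 UMIs, in 5 bins of depth, against the mean UMIs per barcode of each bin, with exact 95% Poisson intervals. Hbb-bs is highest throughout and goes from 192 to 128 CPM, and Hba-a1 goes from 41.2 to 25.7 CPM.

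Globin levels in the rest were also compared between barcodes with markers of different cells. A barcode was placed in a gate when it held UMIs of at least 3 markers of a list, and gates could overlap. Without the 8 barcodes, the 7 globins were at 266 CPM (259 to 274) in the neuron gate, 266 (251 to 283) in the neural progenitor gate, 270 (235 to 309) in the fibroblast gate, 230 (216 to 246) in the pituitary gate, 225 (177 to 282) in the mural gate and 213 (195 to 232) in the cycling gate. The macrophage gate had the highest level, 340 CPM (250 to 453), and the endothelium gate the lowest, 156 CPM (115 to 207), from 38 and 33 barcodes. With those 8 kept, the endothelium gate was at 185 CPM (145 to 233), and with a limit of 20 Hba-a1 UMIs, which brings in the single barcode with 16, at 496 CPM (429 to 571). The macrophage interval overlapped that of the neurons and the endothelium interval did not. The order was not the same among barcodes that passed a single gate (progenitor and cycling markers could still meet), which were also shallower, with a median of 4049 UMIs in the pituitary, 4555.5 in the cycling and 4122 in the endothelium gate. Again without the 8 barcodes, the neurons were then at 278 CPM (269 to 286), the pituitary gate at 277 (251 to 305), the cycling gate at 273 (238 to 312) and the progenitors at 328 (303 to 353). There the endothelium gate was at 184 CPM (98.1 to 315) from 14 barcodes, and its interval overlapped that of the neurons. Within the limits on genes and mitochondrial UMIs, with overlaps included and without leaving out any of the 8 that were within them, the pituitary, cycling and progenitor gates were at 269, 277 and 301 CPM. Depth moved with the gates, with a median of 2877.5 UMIs in the macrophage, 3376.5 in the neuron and 7153 in the endothelium gate, and its part in the result was not tested. These medians, and the shares that follow, are over the whole gates with the 8 barcodes kept. At 1748 UMIs per barcode, a globin UMI was found in 37.1% (35.7 to 38.5) of the neuron gate, 44.7% (28.6 to 61.7) of the macrophage gate and 28.6% (14.6 to 46.3) of the endothelium gate, and these intervals overlapped.

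**Figure D5:**
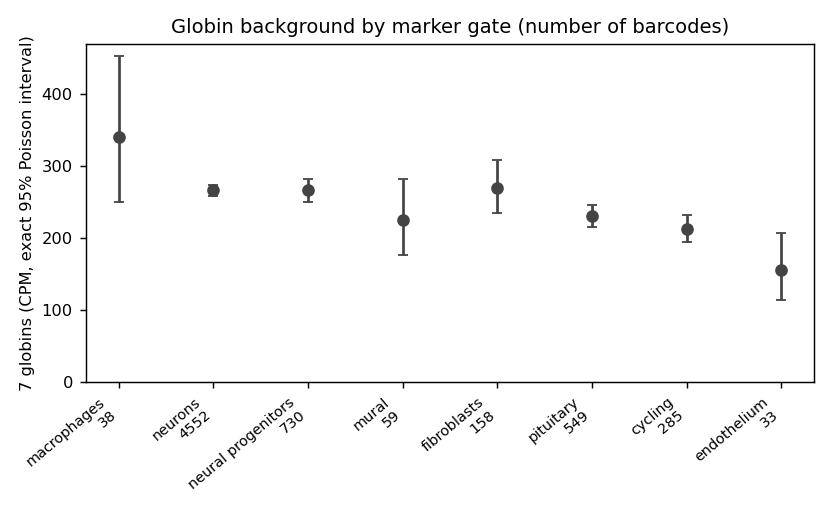
Level of the 7 globins together (CPM, exact 95% Poisson interval) in barcodes with at most 10 Hba-a1 UMIs, without 8 barcodes over 10 globin UMIs, by marker gate in order of median depth, with the number of barcodes under each name. The values run from 156 CPM in the endothelium gate to 340 CPM in the macrophage gate.

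The intervals of the Hbb-bs to Hba-a1 ratio overlapped between barcodes that passed a single gate, at 4.70 (4.27 to 5.19) for neurons, 4.51 (3.51 to 5.85) for neural progenitors, 4.96 (3.60 to 6.96) for the pituitary gate and 3.33 (1.84 to 6.39) for fibroblasts. Barcodes that passed no gate had 4.61 (3.59 to 5.98).

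Pairs of globins were then counted in the same barcodes of the rest. Without the 8 barcodes, Hba-a1 and Hba-a2 shared 252 barcodes where 169 were expected from rate and depth, a ratio of 1.49 (1.32 to 1.69). For Hba-a1 and Hbb-bs the counts were 392 and 370, a ratio of 1.06 (0.958 to 1.17). The intervals of all 9 pairs of Hba-a1, Hba-a2, Hbb-bs, Hbb-bt and Hbb-y other than the first included 1. With the 8 barcodes kept, the 4 pairs with Hbb-y were below 1, at 0.550 to 0.674, and none of their intervals included it. For Hbb-bs and Hbb-bt, the other pair with shared sequence, the ratio was 1.01 (0.913 to 1.12), and the part of shared sequence in these counts was not tested.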

How the data were processed

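The authors deposited raw UMI counts per gene and barcode for 1 pooled library, made per the labels with Cell Ranger 2.1.1 and STAR 2.4.0 on mm10; only uniquely mapped reads were counted, and the read length is not given in the sources used here. All 6465 barcodes were kept (1748 to 51681 UMIs, median 3347), and no doublets were removed. Counts were pooled over barcodes, with exact binomial and Poisson intervals and conditional exact intervals for ratios (Python 3.11.15, numpy 2.4.6, scipy 1.17.1). The ratio step was tested on simulated data. Promoter and transcript sequences came from RefSeq and GENCODE entries of GRCm38. Genes were tested for a 4-fold ratio with at least 20 UMIs in the library. Cell gates needed UMIs of at least 3 list markers. Thinning used seed 1, and a count of 0 was read against 3 counts. Named genes were the globins, the list genes, the 10 largest ratios among genes with at least 20 UMIs in the group and a UMI in 10% of its barcodes, and the 5 genes most like Hba-a1. Members and lists were chosen with earlier results of these data known, and the adult, embryonic and mixed kinds after the values were seen. Alternatives covered the Hba-a1 limit, the totals, the filters, depth and gates. One list gene is not reported here.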

Additional observations from a re-analysis of the deposited data

How the results depend on the processing

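No paired analysis was possible because the 4 samples are runs of 1 library in 1 group, and for the same reason no replicate could be left out. Of 184 alternative values, 142 moved by less than counting error (for counts, less than 1.5 times) and 42 moved by more. The ratio of counted to expected barcodes with both Hba-a1 and Hbb-bs was 1.03, and 0.937 (0.594 to 1.41) at 2 or more UMIs. The embryonic beta share was lower in the high barcodes than in the rest over all barcodes (6.65% and 7.12%, with overlapping intervals) but higher with a limit of 5 (6.76% and 5.69%) and within the limits on genes and mitochondrial UMIs (10.2% and 7.15%). With a limit of 5 Hba-a1 UMIs, the rest had 0.921% Hba-x among alpha-type UMIs and 5.69% embryonic chains among beta-type UMIs. With a limit of 20, which adds the barcode with 16, the depth ratio of the 7 globins was 1.73. Within the limits on genes and mitochondrial UMIs, 18 barcodes were high, with 1.25% Hba-x, 10.2% embryonic beta chains and 48.2% alpha-type UMIs, and the rest had 0.0290% globin UMIs. With totals that leave out mitochondrial and globin UMIs, this share was 0.0295% and the neuron gate had 289 CPM. In globin-dominated barcodes alone the shares were 0.913% Hba-x, 7.64% embryonic beta and 44.0% alpha-type, and 627 genes were called against 993 in all high barcodes. Hba-a1 was in 1.01% of the rest at 2 or more UMIs and in 5.85% after thinning. With globin UMIs kept in the totals 312 genes were called, 10 of them erythroid against 16. With no filter on UMIs 1160 genes were called, 29 of them erythroid, but list genes with under 20 UMIs then entered too. Without the 8 barcodes over 10 globin UMIs, an alternative chosen after seeing the data, the rest had 0.0274% globin UMIs, 0.610% Hba-x and 4.91% embryonic beta chains, and the neuron gate 266 CPM against 277 CPM. Each alternative changed the barcodes, UMIs, genes or count threshold used, and the causes of these moves were not tested. With 1 library, intervals cover counting error only, and differences between embryos cannot be seen.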
